A study of Mus musculus with 2 samples.

Results

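Transforming growth factor beta (TGF-beta) ligands and receptors were followed across the cells of the fibrotic mouse liver. The genes were the 3 ligand genes Tgfb1, Tgfb2 and Tgfb3 and the 3 receptor genes Tgfbr1, Tgfbr2 and Tgfbr3. They were chosen by symbol and are 6 of the 32285 gene rows of the count tables. The study isolated liver nonparenchymal cells (all liver cells other than hepatocytes) from mice given intraperitoneal carbon tetrachloride (CCl4) for 8 weeks and sequenced them on the 10x Chromium platform with the 3' v3 chemistry. One group was Mfap2+/+ (WT) and the other Mfap2-/- (KO). Mfap2 encodes microfibril-associated protein 2, a component of extracellular microfibrils. Both groups received CCl4, and samples without CCl4 were not analysed here. Each group was 1 library of suspended cells. The labels give neither the number, sex or age of the animals behind a library nor the design of the Mfap2 allele. No replicate exists for either genotype, so the comparison has no test, and genotype, animal and library preparation cannot be told apart.

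TGF-beta is made as an inactive precursor that stays bound to its latency peptide and, through latent TGF-beta binding proteins, to extracellular microfibrils until integrins or proteases release it. The released dimer binds TGFBR2, a serine/threonine kinase that then recruits and phosphorylates TGFBR1, and TGFBR1 in turn phosphorylates SMAD2 and SMAD3. TGFBR3 (betaglycan) is a co-receptor without kinase activity that presents ligand, TGF-beta2 above all, to TGFBR2. In liver injury the pathway is best known for driving hepatic stellate cells to become collagen-producing myofibroblasts.

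The WT library held 11783 cell barcodes with 82499307 unique molecular identifiers (UMIs, each standing for 1 captured transcript), and the KO library held 12872 barcodes with 118226367 UMIs. The median per barcode was 4685 UMIs in WT and 6511 in KO, and 40 barcodes occurred in both libraries. After filtering, 10336 WT and 11428 KO cells were kept. They formed 30 clusters, of which 26 were named from marker genes into 22 cell types. A name ends in "-like" because it rests on markers alone. Other-macrophage-like cells carry macrophage markers but were named neither Kupffer-like nor scar-associated. The prefix "low-UMI" marks clusters with a type's markers at a depth far below their library's median. The 4 unnamed clusters held 8.03% of WT and 7.36% of KO cells. The 18 types with at least 50 cells in each library were compared between genotypes. Mfap2 itself gave 215 UMIs in the kept WT cells, 173 of them in mesenchymal-like cells, and 2 UMIs in the kept KO cells. These counts go with the labels. The libraries also differed in ways not limited to the pathway. In 17 of the 18 types the 25% of genes with the longest genomic span had a higher median KO-over-WT ratio than the 25% with the shortest span. In mesenchymal-like cells, for example, the log2 medians were 0.43 and -0.23.

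Levels are given as counts per 1000000 (CPM), the UMIs of a gene per 1000000 UMIs of all cells of that type in a library. Intervals are 95% Poisson intervals for a level, Clopper-Pearson intervals for a share and exact conditional intervals for a log2 ratio of KO over WT. All cover counting error only and not the difference between animals. UMIs at transcript ends do not rank genes by abundance, so levels are compared across cell types within a gene.

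Tgfb1 (ENSMUSG00000002603) lies on chromosome 7 at 25687002 to 25705077 of GRCm38, on the plus strand. Tgfb2 (ENSMUSG00000039239) spans 186622792 to 186705989 of chromosome 1, minus strand. Tgfb3 (ENSMUSG00000021253) spans 86056745 to 86079041 of chromosome 12, minus strand. The receptor genes are Tgfbr1 on chromosome 4 (47353222 to 47414931, plus strand), Tgfbr2 on chromosome 9 (116084293 to 116175360, minus strand) and Tgfbr3 on chromosome 5 (107106570 to 107289629, minus strand). The promoters of Tgfb1, Tgfb2, Tgfbr1 and Tgfbr2 were matched in RefSeq (GRCm38.p6), and those of the ligand found in nearly every cell type and of the ligand found in few are shown. Each is the 250 bases before the annotated start, 5′ to 3′ on the gene's strand, with motif matches in capitals. The motifs searched on both strands were the GC box (GGGCGG or CCGCCC), the TATA box (TATAAA or TTTATA), the AP-1 site (TGACTCA or TGAGTCA) and the cyclic AMP response element (TGACGTCA).
Tgfb1, chr7:25686752-25687001, plus strand: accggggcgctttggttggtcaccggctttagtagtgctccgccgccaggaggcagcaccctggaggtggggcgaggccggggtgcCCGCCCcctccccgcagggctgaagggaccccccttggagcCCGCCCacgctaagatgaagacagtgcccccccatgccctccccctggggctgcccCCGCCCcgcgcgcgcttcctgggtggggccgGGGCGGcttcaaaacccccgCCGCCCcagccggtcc
Tgfb2, chr1:186705990-186706239, minus strand: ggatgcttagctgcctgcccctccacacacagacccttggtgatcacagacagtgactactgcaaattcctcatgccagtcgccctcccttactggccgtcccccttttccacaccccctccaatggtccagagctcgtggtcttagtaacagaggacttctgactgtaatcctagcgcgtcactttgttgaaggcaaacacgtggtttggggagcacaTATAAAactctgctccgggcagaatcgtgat
The Tgfb1 window was 75.2% G or C and held 5 GC boxes and no TATA box. The Tgfb2 window was 53.6% G or C and held 1 TATA box and no GC box. The Tgfbr1 window was 74.8% G or C with 2 GC boxes, and the Tgfbr2 window was 58.4% G or C with no match to any of the 4 motifs. No AP-1 site or cyclic AMP response element was matched in the 4 windows. Among all 32851 promoter windows of this length, 32.7% held a GC box, 12.4% a TATA box, 4.46% an AP-1 site and 1.55% a cyclic AMP response element. A match is a description of the letters and not of a bound site.

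Tgfb1, the ligand most associated with leukocytes and platelets, was present in every named type, with its highest levels in classical monocyte-like, NK or ILC1-like and Kupffer-like cells. In WT the level was 282 CPM (265 to 300) in classical monocyte-like cells, and in KO it was 283 CPM (267 to 299). NK or ILC1-like cells held 254 CPM in WT and 252 CPM in KO. Kupffer-like cells, the resident macrophages of the liver, held 244 CPM (235 to 254) in WT and 190 CPM (179 to 201) in KO. In WT each of these 3 types overlapped its neighbour in the order, and a gap followed before sinusoidal endothelial-like cells (205 CPM in WT, 193 in KO). In KO the gap came after NK or ILC1-like cells. Below these, other-macrophage-like cells stood at 200 and 160 CPM, patrolling monocyte-like cells at 196 and 176, B-like cells at 187 and 192, scar-associated macrophage-like cells at 166 and 147 and T-like cells at 129 and 141. Mesenchymal-like cells, which hold the stellate cells and fibroblasts, stood at 99.3 CPM (88.3 to 111) in WT and 89.7 CPM (80.3 to 99.9) in KO. Neutrophil-like cells (56.2 and 47.2 CPM) and hepatocyte-like cells (53.5 and 35.4) were lower. Cholangiocyte-like cells, the bile duct epithelium, were lowest of the 18 types in WT with 27.9 CPM (23.6 to 32.7), and held 24.9 CPM (21.0 to 29.3) in KO, where only the low-UMI cholangiocyte-like cells were lower, at 23.0 CPM on 3 UMIs.

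**Figure D1:**
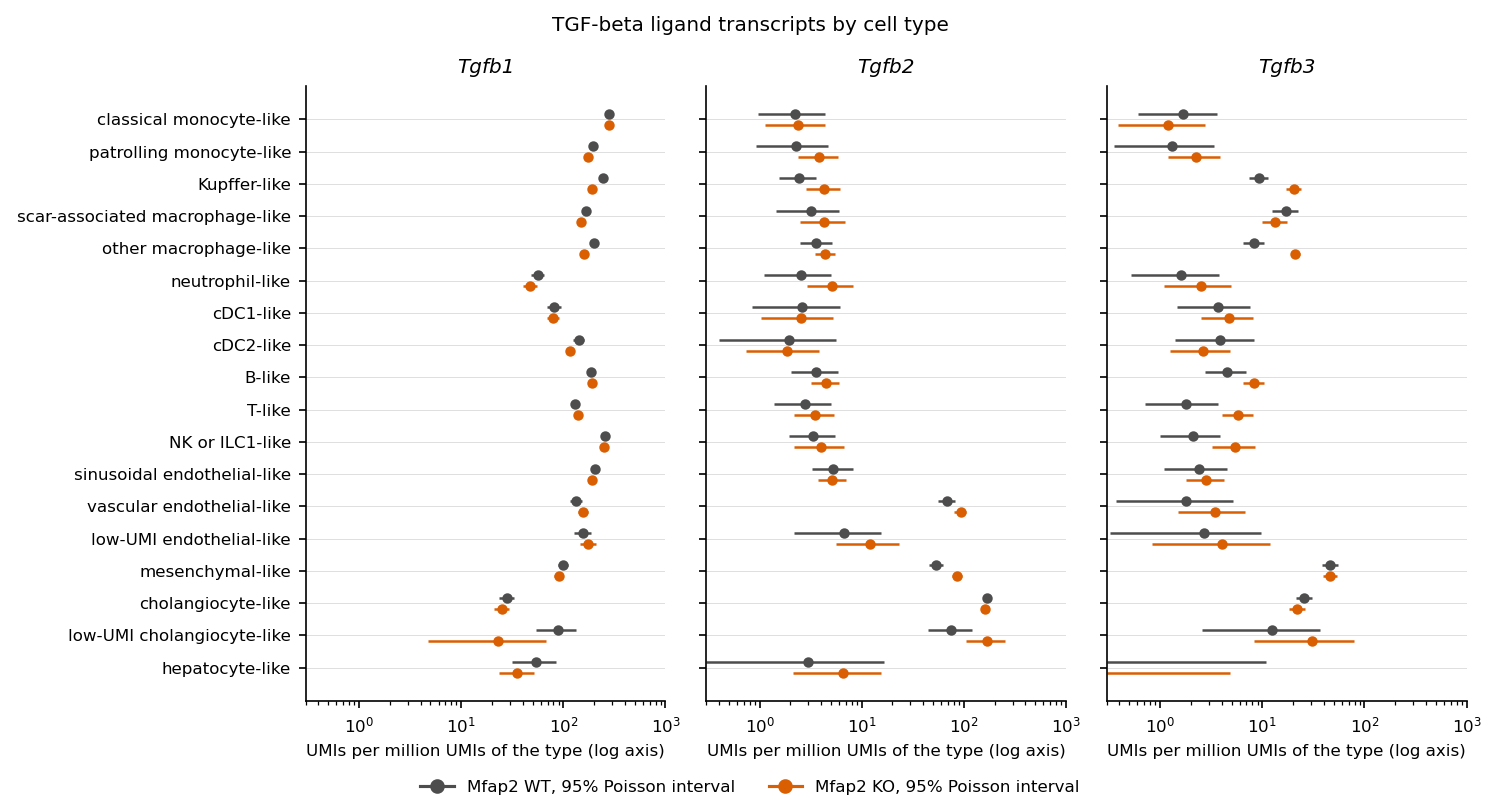
Level of the 3 ligand transcripts in the 18 cell types compared, in CPM on a log axis. Points are the WT (grey) and KO (orange) library, lines are 95% Poisson intervals, and a type with 0 UMIs has a line without a point. Tgfb1 lies above 20 CPM in every type shown. Tgfb2 stands out in cholangiocyte-like, low-UMI cholangiocyte-like, vascular endothelial-like and mesenchymal-like cells. Tgfb3 is highest in mesenchymal-like cells, followed in WT by cholangiocyte-like cells. In KO the cholangiocyte-like interval of Tgfb3 overlaps those of other-macrophage-like and Kupffer-like cells.

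At full depth a Tgfb1 UMI was found in 82.6% of Kupffer-like, 77.1% of classical monocyte-like and 60.2% of NK or ILC1-like cells of WT, and in 80.1%, 78.0% and 65.3% of KO. These cells differed in depth, with medians of 12555, 7811 and 6656 UMIs in WT. After every cell was thinned to 1000 UMIs, the shares in WT were 20.1% in Kupffer-like, 23.0% in classical monocyte-like and 18.4% in NK or ILC1-like cells, against 2.99% in cholangiocyte-like cells, the lowest of the 18 types. In KO they were 20.4%, 22.1% and 18.7%, against 2.52% in cholangiocyte-like cells. No type can be taken to lack Tgfb1, so the lowest type stands in place of a background.

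Within a type, Tgfb1 was not called higher in KO in any of the 18 types compared. Of 18 types, 13 had a log2 ratio whose interval included 0, 5 had an interval below 0 and none had one above. The median ratio over the types was -0.15. A call was made where the ratio was at least 1.5-fold and its interval excluded 0. Over all pairs of a gene and one of the 18 types, 10.8% were called higher in KO and 5.55% lower. For Tgfb1, 0 types were called higher and 1 of 18 lower, a share near the background. The lower call was the low-UMI cholangiocyte-like type, on 21 WT and 3 KO UMIs, where 5.99% of all genes were called higher and 8.72% lower. That ratio, -1.94, became 0.78 with stricter cell filters. Kupffer-like cells had a log2 ratio of -0.37 (-0.46 to -0.27) and other-macrophage-like cells -0.32 (-0.41 to -0.23), both under the 1.5-fold limit. Thinning to 1000 UMIs gave -0.07 in Kupffer-like cells, and the other alternatives gave values down to -0.52. Thinned to 2000 UMIs, 37.8% of Kupffer-like cells in WT and 26.0% in KO had a Tgfb1 UMI. The share of the library's Tgfb1 found in each type also differed. Kupffer-like cells held 21.2% of all Tgfb1 UMIs in WT and 8.28% in KO. They were 8.04% of the kept cells in WT and 3.96% in KO. Other-macrophage-like cells held 14.8% and 18.5%, and were 8.92% and 12.3% of cells. Sinusoidal endothelial-like cells held 6.47% and 11.0%, and B-like cells 6.93% and 11.6%. The share of a type depends on how many of its cells entered each suspension, which 1 library per genotype cannot separate from genotype.

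**Figure D2:**
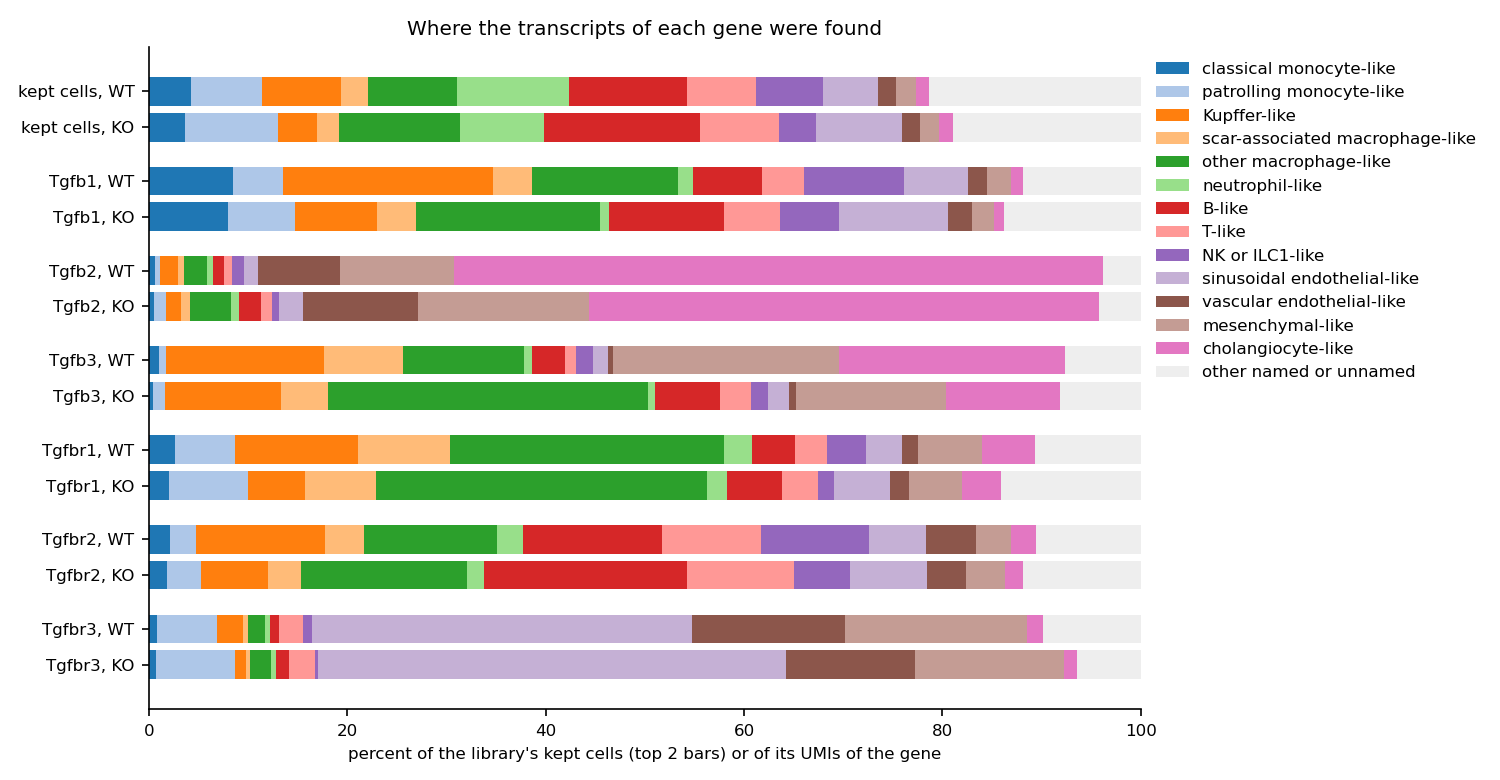
Percent of the kept cells (top pair of bars) and of the UMIs of each gene found in each cell type, for the WT and KO library. Cholangiocyte-like cells are a thin slice of the cells and the widest slice of Tgfb2, sinusoidal endothelial-like cells are the widest slice of Tgfbr3, and the Kupffer-like slice of Tgfb1 is 21.2% in WT and 8.28% in KO.

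Tgfb2 was found mainly in bile duct epithelium. Cholangiocyte-like cells held 170 CPM (159 to 181) in WT and 162 CPM (152 to 172) in KO, a log2 ratio of -0.07 (-0.20 to 0.06). They were 1.30% of WT cells and 1.39% of KO cells but held 65.5% of the Tgfb2 UMIs of the WT library and 51.4% of those of the KO library. The transcripts were unevenly spread within the type, with 30.1% (WT) and 29.0% (KO) of them in the 5 richest cells. Across the alternatives the ratio went from -0.67, with cells gated singly by markers, to 0.39, with every cell thinned to 1000 UMIs. Low-UMI cholangiocyte-like cells stood at 75.4 CPM in WT and 169 CPM in KO, on 18 and 22 UMIs, and in KO 90.9% of these UMIs were in the 5 richest cells.

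Vascular endothelial-like cells held 68.3 CPM (56.4 to 82.0) of Tgfb2 in WT and 92.8 CPM (80.8 to 106) in KO. The signal came from the larger of their 2 clusters, led by Selp, Rspo3 and Vwf, which stood at 77.7 CPM in WT and 112 CPM in KO. The smaller cluster, led by Mecom, Nrg1 and Ly6c1, held 15.6 and 4.89 CPM on 4 and 2 UMIs. Mesenchymal-like cells held 53.2 CPM (45.2 to 62.2) in WT and 86.2 CPM (77.0 to 96.2) in KO. Sinusoidal endothelial-like cells, close relatives of the vascular cells, held 5.28 CPM in WT and 5.17 CPM in KO. Low-UMI endothelial-like cells had 6.65 and 12.1 CPM on 5 and 9 UMIs. The leukocyte and hepatocyte-like types among the 18 lay between 1.92 and 3.61 CPM in WT and between 1.84 and 6.56 CPM in KO. After thinning, 12.7% of WT and 11.9% of KO cholangiocyte-like cells had a Tgfb2 UMI, and 6.42% and 6.31% of vascular endothelial-like cells did. B-like cells, taken as the background, had 0.166% in WT and 0.510% in KO, where the median cell had 3379 and 4764 UMIs before thinning. The sinusoidal share of 0.175% in WT and 0.611% in KO was near that background.

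Of the 13 types with at least 20 Tgfb2 UMIs, 3 were called higher in KO and 0 lower, beside 10.8% and 5.55% of all gene and type pairs. The 3 were mesenchymal-like, Kupffer-like and low-UMI cholangiocyte-like cells. Only the mesenchymal-like call rested on more than 100 UMIs: 158 in WT and 320 in KO gave a log2 ratio of 0.70 (0.42 to 0.98). In that type 14.7% of all genes were called higher and 6.41% lower, and the 25% with the longest span, to which Tgfb2 belongs at 83.2 kb, had a median of 0.43. The part of gene length in the result was not tested. The Tgfb2 call in mesenchymal-like cells ended under 5 of the alternatives. The log2 ratios were 0.58 with no doublets removed, 0.57 with cells gated singly by markers and 0.51 as the mean of single-cell CPM. They were 0.55 relative to the median gene and 0.16 after thinning, where 9 WT and 12 KO cells had a UMI. The Kupffer-like call rested on 25 and 28 UMIs at levels of 2.41 and 4.29 CPM, near the level of the B-like cells. The low-UMI cholangiocyte-like ratio of 1.16 turned to -1.15 with stricter cell filters, -1.69 at a finer clustering and -1.47 without the 5 richest cells. An antisense gene, Gm29491, shares 295 bases with Tgfb2 on the opposite strand.

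Tgfb3 was highest in mesenchymal-like cells, at 46.1 CPM (38.7 to 54.5) in WT and 46.1 CPM (39.4 to 53.5) in KO. With cells gated singly by markers, cholangiocyte-like cells were highest in WT at 33.8 CPM, and as the mean of single-cell CPM, low-UMI cholangiocyte-like cells were highest in KO at 46.0. Cholangiocyte-like cells held 25.6 CPM (21.5 to 30.3) in WT and 21.8 CPM (18.2 to 26.0) in KO, and their intervals did not overlap those of mesenchymal-like cells in either library. In KO the low-UMI cholangiocyte-like cells stood between the pair at 30.7 CPM (8.35 to 78.5), on 4 UMIs. Scar-associated macrophage-like cells, led by Mmp12 and Gpnmb, held 16.9 CPM (12.5 to 22.4) and 13.3 CPM (9.98 to 17.4). In these 3 types the WT and KO intervals overlapped, and the log2 ratios were -0.00, -0.23 and -0.34. The mesenchymal-like ratio was 0.91 with cells gated singly by markers and -0.62 after thinning. The thinned value rested on 9 WT and 7 KO cells with a UMI. Sinusoidal endothelial-like, vascular endothelial-like, classical and patrolling monocyte-like and neutrophil-like cells were between 1.31 and 2.37 CPM in WT and between 1.19 and 3.44 in KO. No Tgfb3 UMI was found in 55 WT and 80 KO hepatocyte-like cells, which allows a level of up to 8.92 and 3.94 CPM (3 UMIs).

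The other 2 macrophage types differed between the libraries. Kupffer-like cells held 9.25 CPM (7.49 to 11.3) of Tgfb3 in WT and 20.2 CPM (16.9 to 24.0) in KO, on 96 and 132 UMIs. Other-macrophage-like cells held 8.22 CPM (6.45 to 10.3) in WT and 21.0 CPM (18.9 to 23.3) in KO, on 73 and 364 UMIs. The intervals of the libraries did not overlap in either type. The log2 ratios were 1.13 (0.74 to 1.52) and 1.35 (0.99 to 1.74), and the second lay at the 97.1 percentile of the genes of that type. T-like cells (1.77 and 5.83 CPM), NK or ILC1-like cells (2.10 and 5.39) and B-like cells (4.49 and 8.22) were also higher in KO, with log2 ratios of 1.72 (0.52 to 3.13), 1.36 (0.18 to 2.63) and 0.87 (0.14 to 1.66). They rested on 7 and 35, 10 and 19, and 20 and 74 UMIs, and the B-like ratio was 0.44 with cells gated singly by markers. In all, Tgfb3 was called higher in 5 and lower in 0 of the 10 types with enough UMIs, beside 10.8% and 5.55% of all pairs. B-like cells serve as the background for Tgfb3, and the T-like and NK or ILC1-like levels lay below theirs in both libraries, so 3 of the 5 calls were made at or below background. The share of all genes called higher was 16.7% in Kupffer-like (4.34% lower), 11.6% in other-macrophage-like (4.39% lower), 9.98% in T-like (4.23% lower), 10.5% in NK or ILC1-like (3.36% lower) and 7.79% in B-like cells (3.58% lower). Other-macrophage-like cells held 12.1% of the library's Tgfb3 UMIs in WT and 32.3% in KO.

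Several measurements were set beside the Tgfb3 difference. Ttll5, a gene on the opposite strand, shares 5149 bases with Tgfb3 including its 3' end, and whether the counting used strand is not given in the sources used here. Ttll5 had log2 ratios of 0.91 (0.60 to 1.22) in Kupffer-like and 0.55 (0.30 to 0.80) in other-macrophage-like cells. It had 0.36 in T-like, 0.35 in NK or ILC1-like and 0.25 in B-like cells, where the intervals included 0. In scar-associated macrophage-like cells Ttll5 had 0.06, and in mesenchymal-like cells, where Tgfb3 had -0.00, Ttll5 had 0.35. Both of these Ttll5 intervals included 0. In cholangiocyte-like cells Ttll5 had 0.79 and Tgfb3 -0.23. Its part in the Tgfb3 result was not tested. The B-like background was itself higher in KO. After thinning, the share with a Tgfb3 UMI was 0.25% in WT and 1.25% in KO for B-like, 0.844% and 1.11% for Kupffer-like, and 0.872% and 1.86% for other-macrophage-like cells. In KO the Kupffer-like interval (0.36% to 2.56%, on 5 cells) overlapped that of B-like cells (0.78% to 1.88%, on 22 cells). Thinned to 2000 UMIs, Kupffer-like cells gave 1.48% and 4.29%, other-macrophage-like cells 1.46% and 4.19%, and B-like cells 0.883% and 1.45%. In KO, 0.567% of T-like and 0.711% of NK or ILC1-like cells had a Tgfb3 UMI at 1000 UMIs. The Kupffer-like ratio fell under 1.5-fold in 2 alternatives, with 0.49 at stricter cell filters and 0.39 after thinning to 1000 UMIs. The thinned value rested on 7 WT and 5 KO cells with a UMI. The other-macrophage-like ratio ranged from 0.59, with cells gated singly by markers, to 1.70, with each library clustered alone. The 12 mesenchymal markers, all detected in both libraries, summed to 188 CPM in WT and 136 in KO in other-macrophage-like cells, and to 174 and 147 CPM in Kupffer-like cells. The 7 cholangiocyte markers summed to 65.2 and 57.9 CPM in the former and to 56.8 and 52.8 CPM in the latter. The part of free RNA from these 2 types, the richest in Tgfb3, in the macrophage result was not tested.

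Tgfbr1, the type I kinase that phosphorylates SMAD2 and SMAD3, stood highest among the 18 types in macrophages other than Kupffer-like cells. Scar-associated macrophage-like cells held 228 CPM (211 to 247) in WT and 264 CPM (248 to 280) in KO. Other-macrophage-like cells held 216 CPM (206 to 226) and 281 CPM (273 to 289). The order of the pair thus differed between the libraries, and their intervals overlapped in each. Mesenchymal-like cells followed with 151 CPM (137 to 165) and 211 CPM (196 to 226), then patrolling monocyte-like cells with 138 and 202 CPM. Kupffer-like cells stood at 82.8 CPM (77.4 to 88.6) in WT and 130 CPM (121 to 139) in KO, below the other macrophages in both libraries. Endothelial, lymphoid and neutrophil types lay between 50.5 and 67.8 CPM in WT and between 62.0 and 115 CPM in KO. In WT hepatocyte-like (32.7 CPM) and cDC1-like cells (35.1) were lowest. In KO they stood at 36.7 and 47.5 CPM, above the low-UMI cholangiocyte-like cells at 23.0 CPM on 3 UMIs. Plasmacytoid dendritic (pDC-like) cells, with 30 cells in WT and 92 in KO, were too few to be compared. They held 442 CPM (362 to 534) and 559 CPM (511 to 610), with 77.4% and 45.4% of the UMIs in their 5 richest cells.

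**Figure D3:**
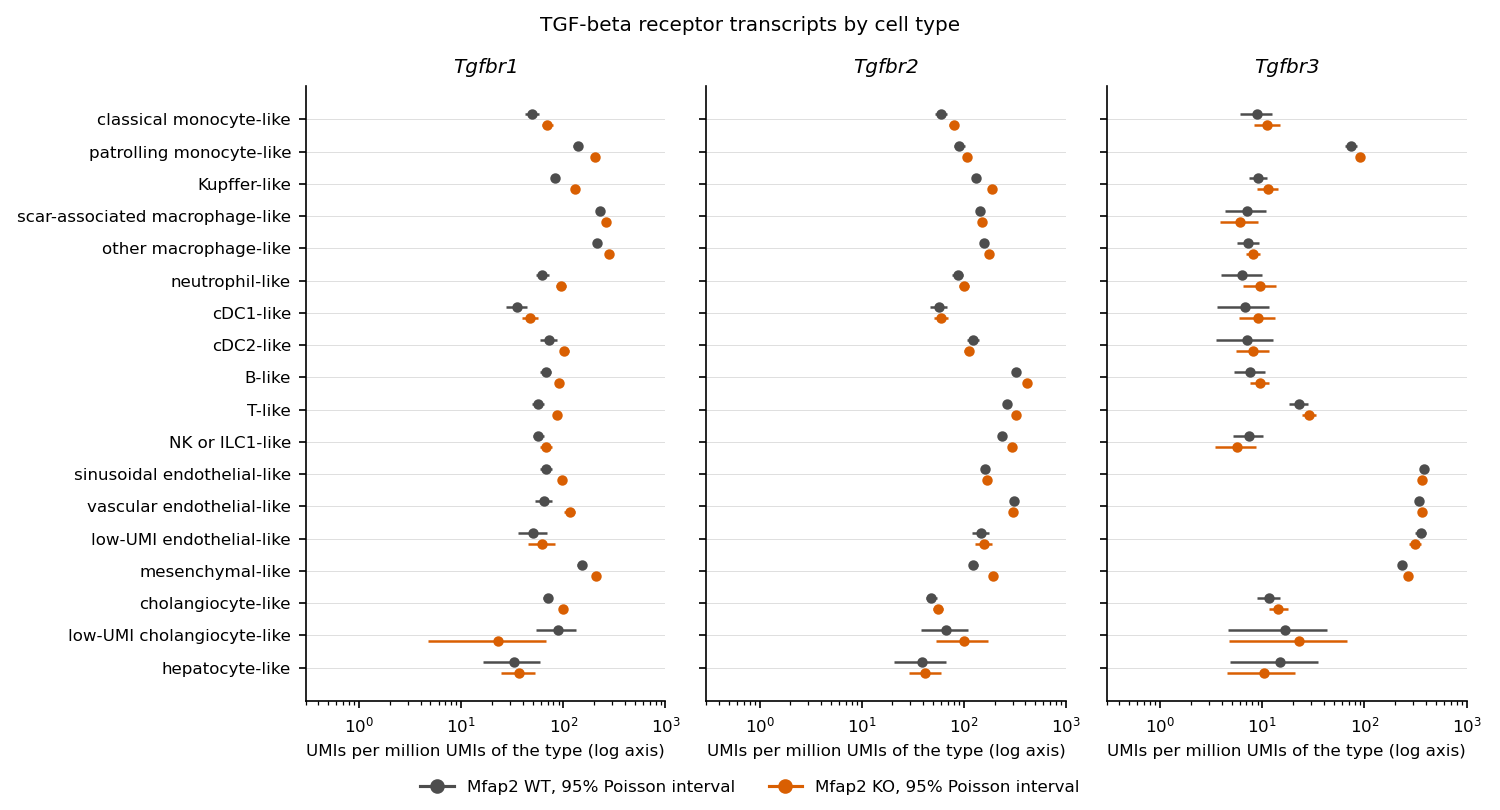
Level of the 3 receptor transcripts in the 18 cell types compared, in CPM on a log axis, with 95% Poisson intervals. WT is grey and KO orange. Tgfbr1 is highest in scar-associated and other-macrophage-like cells. Tgfbr2 is highest in B-like cells, followed by vascular endothelial-like cells in WT and T-like cells in KO. Tgfbr3 forms 2 levels, with endothelial and mesenchymal-like cells at 232 CPM or more and all others at 91.3 CPM or less.

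Tgfbr1 was higher in the KO library in most types. The interval of its log2 ratio lay above 0 in 15 of 18 types, included 0 in 2 and lay below 0 in 1. The median over the types was 0.49. The size was mostly modest: 4 of 18 types were called higher and 1 lower, beside 10.8% and 5.55% of all pairs. The 4 were vascular endothelial-like (64.1 to 115 CPM, log2 0.84, 0.52 to 1.18), Kupffer-like (0.65, 0.51 to 0.79), T-like (0.62, 0.39 to 0.85) and neutrophil-like cells (0.60, 0.34 to 0.87). In vascular endothelial-like cells 6.76% of all genes were called higher and 6.47% lower, and in neutrophil-like cells 11.1% and 3.61%. The lower call was the low-UMI cholangiocyte-like type, on 21 and 3 UMIs. In other-macrophage-like cells the ratio was 0.38 (0.30 to 0.46), at the 71.1 percentile of its genes, and the alternatives gave 0.17 to 0.78. In mesenchymal-like cells it was 0.48 (0.31 to 0.65) and became -0.18 after thinning.

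Gene length was set beside this pattern. Tgfbr1 spans 61.7 kb, and its ratio exceeded the median of the 25% longest genes in 13 of 18 types. In Kupffer-like cells that median was 0.44, in T-like cells 0.30, in neutrophil-like cells 0.38 and in vascular endothelial-like cells 0.23. The part of gene length in the Tgfbr1 result was not tested. The median of all genes was above 0 in most types, by up to 0.15 in Kupffer-like and NK or ILC1-like cells, and Tgfbr1 stood above it in 17 of 18 types. Relative to it the Tgfbr1 ratios were 0.81 in vascular endothelial-like, 0.51 in T-like, 0.50 in Kupffer-like and 0.48 in neutrophil-like cells, so that the call stood in vascular endothelial-like cells alone of the 4. In vascular endothelial-like cells the ratio stayed between 0.67 and 1.07 in the alternatives that gave a value. Thinned to 1000 UMIs, the share of cells with a Tgfbr1 UMI was 17.4% in WT and 21.4% in KO for other-macrophage-like, 18.0% and 15% for scar-associated macrophage-like and 8.56% and 11.9% for Kupffer-like cells.

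**Figure D4:**
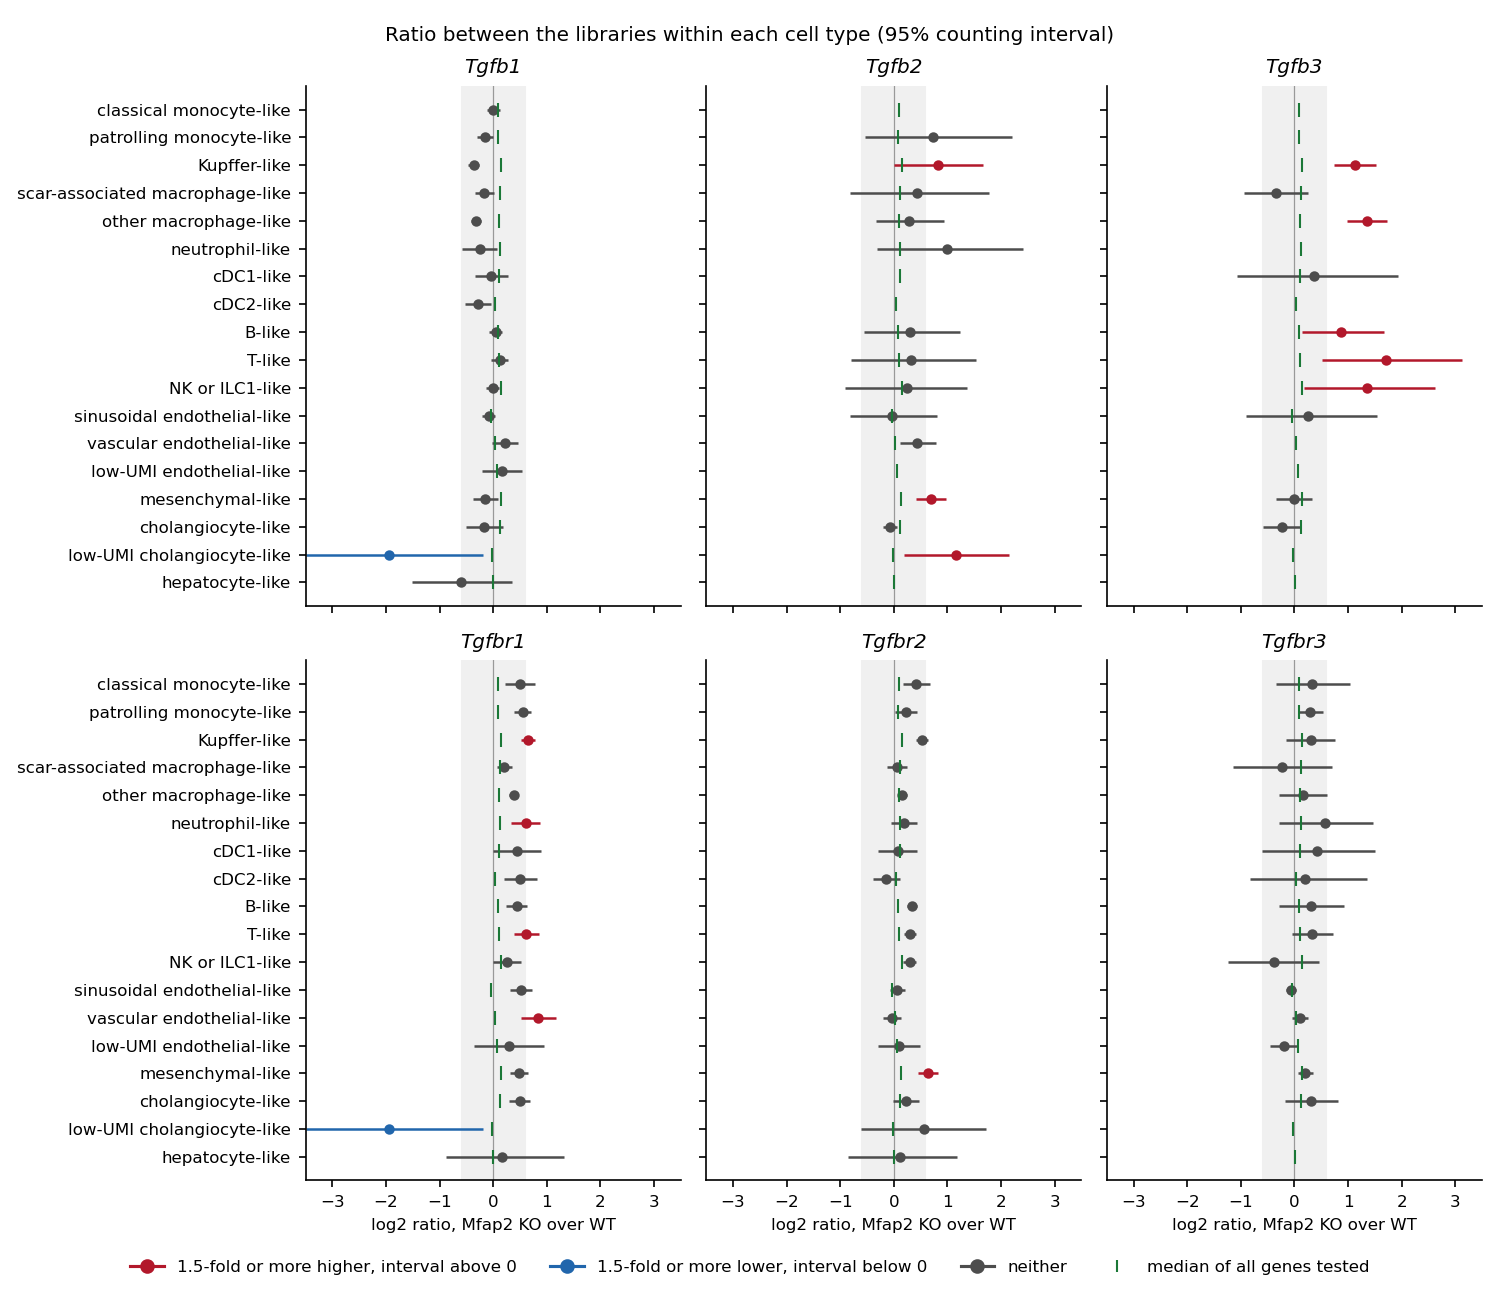
Log2 ratio of KO over WT for each gene in each cell type with at least 20 UMIs, with 95% counting intervals. Intervals that pass the axis limit are drawn up to it, grey bands mark ratios under 1.5-fold, green ticks mark the median of all genes of the type, and colours mark calls. Tgfbr1 points lie to the right of 0 in 17 of 18 types, Tgfb1 points lie near or left of 0, and the 5 Tgfb3 calls are in macrophage and lymphoid types.

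Tgfbr2, the kinase that binds ligand first, was highest among the 18 types in lymphocytes and vascular endothelium. B-like cells held 326 CPM (310 to 344) in WT and 414 CPM (400 to 427) in KO. Vascular endothelial-like cells held 311 CPM (284 to 338) and 302 CPM (280 to 326), T-like cells 264 CPM (248 to 280) and 325 CPM (311 to 340), and NK or ILC1-like cells 238 CPM (224 to 252) and 293 CPM (275 to 311). B-like and vascular endothelial-like cells overlapped in WT and did not in KO. The pDC-like cells, too few to be compared, held 296 CPM (231 to 373) in WT and 339 CPM (302 to 379) in KO. Below a gap came sinusoidal endothelial-like cells (160 and 167 CPM), other-macrophage-like cells (157 and 176), scar-associated macrophage-like cells (144 and 150), Kupffer-like cells (131 and 189) and mesenchymal-like cells (124 and 192). Classical monocyte-like cells, at the top for Tgfb1, stood at 59.4 and 79.5 CPM. Cholangiocyte-like cells, at the top for Tgfb2, stood at 47.9 and 56.1 CPM, and hepatocyte-like cells at 38.7 and 42.0.

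Within the T-like cells Tgfbr2 differed by cluster. The cluster led by Themis, Lef1 and Cd3g held 277 CPM in WT and 358 CPM in KO. The cluster with Il1rl1, Gata3 and Ctla4 among its leading genes held 147 and 189 CPM, and the cluster led by Il17a, Il23r and Trdc held 256 CPM (194 to 332) and 219 CPM (173 to 273). After thinning, 27.4% of B-like cells in WT and 30.8% in KO had a Tgfbr2 UMI, against 2.70% and 1.61% of hepatocyte-like cells, the lowest of the 18 types.

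The interval of the Tgfbr2 ratio lay above 0 in 8 of 18 types and included 0 in 10. A single type, mesenchymal-like cells, was called higher and none lower, a share below the background of 10.8%. The mesenchymal-like ratio was 0.63 (0.45 to 0.82), and it was 0.49 relative to the median gene, 0.91 with cells gated singly by markers and 1.06 after thinning. Kupffer-like cells followed with 0.53 (0.42 to 0.65). B-like cells had 0.34, T-like and NK or ILC1-like cells 0.30 each, and vascular endothelial-like cells -0.04 (-0.20 to 0.13). Tgfbr2 spans 91.1 kb and exceeded the median of the longest genes in 6 of 18 types.

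Tgfbr3, the betaglycan co-receptor, split the types into a high and a low set. Sinusoidal endothelial-like cells, the fenestrated lining of the liver sinusoids, held 379 CPM (360 to 400) in WT and 365 CPM (352 to 378) in KO. Vascular endothelial-like cells held 343 CPM (316 to 372) and 369 CPM (345 to 395), and low-UMI endothelial-like cells 356 and 313 CPM. The intervals of these 3 types overlapped from neighbour to neighbour in each library. Mesenchymal-like cells held 232 CPM (215 to 250) and 266 CPM (250 to 284). Patrolling monocyte-like cells stood between the sets with 74.4 CPM (65.0 to 84.7) and 91.3 CPM (83.7 to 99.5), apart from classical monocyte-like cells at 8.85 and 11.2 CPM. T-like cells held 22.8 and 28.6 CPM, with 83 of 90 UMIs in WT and 150 of 172 in KO in the cluster led by Themis and Lef1. The remaining types compared lay between 6.39 and 16.8 CPM in WT and between 5.68 and 23.0 CPM in KO. After thinning, 30.4% of WT and 29.0% of KO sinusoidal endothelial-like cells had a UMI, against 0.582% and 0.567% of B-like cells, the background. The share was 5.28% and 8.27% for patrolling monocyte-like cells and 1.84% and 3.06% for T-like cells. Sinusoidal endothelial-like cells held 38.3% of the Tgfbr3 UMIs of WT and 47.2% of those of KO.

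For Tgfbr3, none of the 16 types with enough UMIs was called in either direction, beside 10.8% and 5.55% of all pairs. In 14 the interval included 0, and it lay above 0 in mesenchymal-like (0.20, 0.06 to 0.34) and patrolling monocyte-like cells (0.30, 0.07 to 0.53). Tgfbr3 has the longest span of the 6 genes, 183 kb, and exceeded the median of the longest genes in 4 of 16 types.

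Ligand and receptor levels could be set side by side by cell type. Mesenchymal-like cells, which include the matrix-producing cells of the fibrotic liver, held all 3 receptor transcripts along with all 3 ligand transcripts. Vascular endothelial-like cells also held the 3 receptor transcripts, along with Tgfb1 and Tgfb2. A UMI of both Tgfbr1 and Tgfbr2 was found in 48.6% (41.6 to 55.6) of WT and 66.1% (59.5 to 72.2) of KO mesenchymal-like cells, where the median cell had 12872 and 14832 UMIs. The shares were 49.6% and 69.5% in scar-associated macrophage-like, 43.6% and 61.0% in other-macrophage-like, 36.8% and 54.4% in Kupffer-like and 47.8% and 57.9% in cholangiocyte-like cells. They were 27.3% and 47.1% in vascular and 18.9% and 30.1% in sinusoidal endothelial-like cells, 11.8% and 21.4% in B-like, and 2.40% and 4.88% in neutrophil-like cells. The KO library was deeper. Thinned to 1000 UMIs, the shares were 1.92% and 0.893% in mesenchymal-like, 2.40% and 3.80% in other-macrophage-like and 2.41% and 2.61% in B-like cells. The mesenchymal-like shares rested on 4 WT and 2 KO cells, too few to place this type above or below B-like cells at that depth. Tgfb1 together with both receptors was detected in 34.8% of WT and 46.5% of KO other-macrophage-like cells and in 30.8% and 40.2% of mesenchymal-like cells. Across the 18 types, log2(CPM + 10) of Tgfb1 correlated with that of Tgfbr2 at r = 0.55 in WT and 0.61 in KO, and with that of Tgfb2 at -0.54 and -0.58. Tgfb2 and Tgfb3 correlated at 0.61 and 0.59. These are descriptions over 18 types of 1 library, which share that library and its free RNA.

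The genes whose level over the 18 types was most like each of the 6 were found among 10659 genes by the lower of the Pearson r in the 2 libraries, on log2(CPM + 10). For Tgfb1 they were Fam126a (0.81), Usp25 and Casp1 (0.79 each), Calhm2 (0.77) and Ubl3 (0.76). For Tgfb2 they were Fmo2 (0.95), Ccn1 and Trip6 (0.94 each), Plcd3 and Casp12 (0.93 each). Tgfb3 was followed by Fblim1 (0.87), Egr2 and Mdk (0.83 each), Matn4 and Src (0.81 each). Tgfbr1 was followed by Dennd1a (0.78), Sqstm1 and Rock2 (0.75 each), Zfp703 (0.74) and Gm26802 (0.73). Tgfbr2 was followed by Fli1 (0.85), Cerk (0.82), Il4ra (0.81), Foxo1 and Sesn1 (0.79 each). Tgfbr3 was followed by Vegfc (0.94), Hmcn1, Hoxb3 and Ehd3 (0.93 each) and Slc43a3 (0.92). The values for Tgfb2 and Tgfbr3 were the highest, and both have few types with high levels.

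The rest of the pathway was read from 4 lists of 37 genes: latency and activation, co-receptors and decoys, intracellular signalling and inhibitors, and TGF-beta response. The lists were examined in the 13 types in which a ligand or receptor gene stood among its top 3. Over 394 tested pairs of a listed gene and a type, 54 were called higher in KO (13.7%) and 26 lower (6.60%). Over all genes in the same types 11.1% were called higher and 5.63% lower. With the ratios taken relative to the median gene of each type, 32 pairs were called higher (8.12%) and 32 lower (8.12%), beside 8.04% and 8.23% of all genes, so both shares were near the background. With every cell thinned to 1000 UMIs, 34 of 238 tested pairs were called higher (14.3%) and 15 lower (6.30%), beside 8.45% and 5.55% of all genes.

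In mesenchymal-like cells 3 of 9 tested response genes were called lower and 0 higher, and the median of the 9 was 0.01. Tgfbi, which encodes a TGF-beta induced matrix adhesion protein, went from 565 CPM in WT to 273 CPM in KO (log2 -1.05, -1.16 to -0.93). Tagln (transgelin) went from 624 to 371 CPM (-0.75) and Acta2 (smooth muscle actin, the myofibroblast marker) from 285 to 168 CPM (-0.76). Spsb1 stood at 332 and 333 CPM. In the other lists the integrin subunit gene Itgb8, whose product releases latent TGF-beta (16.5 to 40.4 CPM, 1.29), and Nrros, which tethers latent TGF-beta on myeloid cells (23.6 to 54.1, 1.2), were called higher. So were Tgfbrap1 (0.90), Acvrl1 (0.89), Smurf1 (0.83) and Smad6 (0.59). Nrros stood highest in conventional dendritic (cDC2-like) cells, at 553 CPM in WT and 755 in KO. The part of free RNA in its calls in mesenchymal-like and other nonmyeloid types was not tested. Of 35 tested genes 6 were called higher and 3 lower, beside 14.7% and 6.41% of all genes of the type. The median of the 35 was 0.31, and that of all genes 0.14. The latent TGF-beta binding protein genes Ltbp1 (183 and 241 CPM), Ltbp2 (212 and 249), Ltbp3 (50.2 and 45.5) and Ltbp4 (117 and 99.9) were highest in this type and none was called.

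In the macrophages Smad3, Smad7 and Thbs1 were called higher in all 3 types. Relative to the median gene, Smad3 (0.56) and Smad7 (0.51) were no longer called in other-macrophage-like cells, and the other 7 of these 9 calls stood. In Kupffer-like cells 7 of 33 genes were called higher and 2 lower, beside 16.7% and 4.34% of all genes. The decoy receptor gene Bambi went from 4.62 to 11.0 CPM (1.25), the inhibitory Smad7 from 48.0 to 98.6 (1.04), and Thbs1, a thrombospondin gene whose product can release latent TGF-beta, from 17.9 to 34.4 (0.94). Smad3 reached 60.5 CPM in KO (1.01). Spsb1 (0.80), Ldlrad4 and Pmepa1 (0.70 each) were also called higher. Ltbp1 (1.93 to 0.612 CPM, -1.65) and Tgfbi (94.6 to 55.9, -0.76) were called lower. In other-macrophage-like cells 6 of 35 were called higher and 1 lower, beside 11.6% and 4.39%. Thbs1 went from 38.3 to 97.9 CPM (1.35), while Tgfbi went from 226 to 137 (-0.73). Itgb8 (1.28, at 0.901 and 2.19 CPM), Zfyve9 (0.68), Smad3 (0.66), Bambi and Smad7 (0.62 each) made up the rest. In scar-associated macrophage-like cells 6 of 30 were called higher and 1 lower, beside 9.39% and 2.66%. Smad7 went from 59.8 to 127 CPM (1.09), with Spsb1, Thbs1, Pmepa1, Smad3 and Eng also higher and Furin lower (-0.71).

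**Figure D5:**
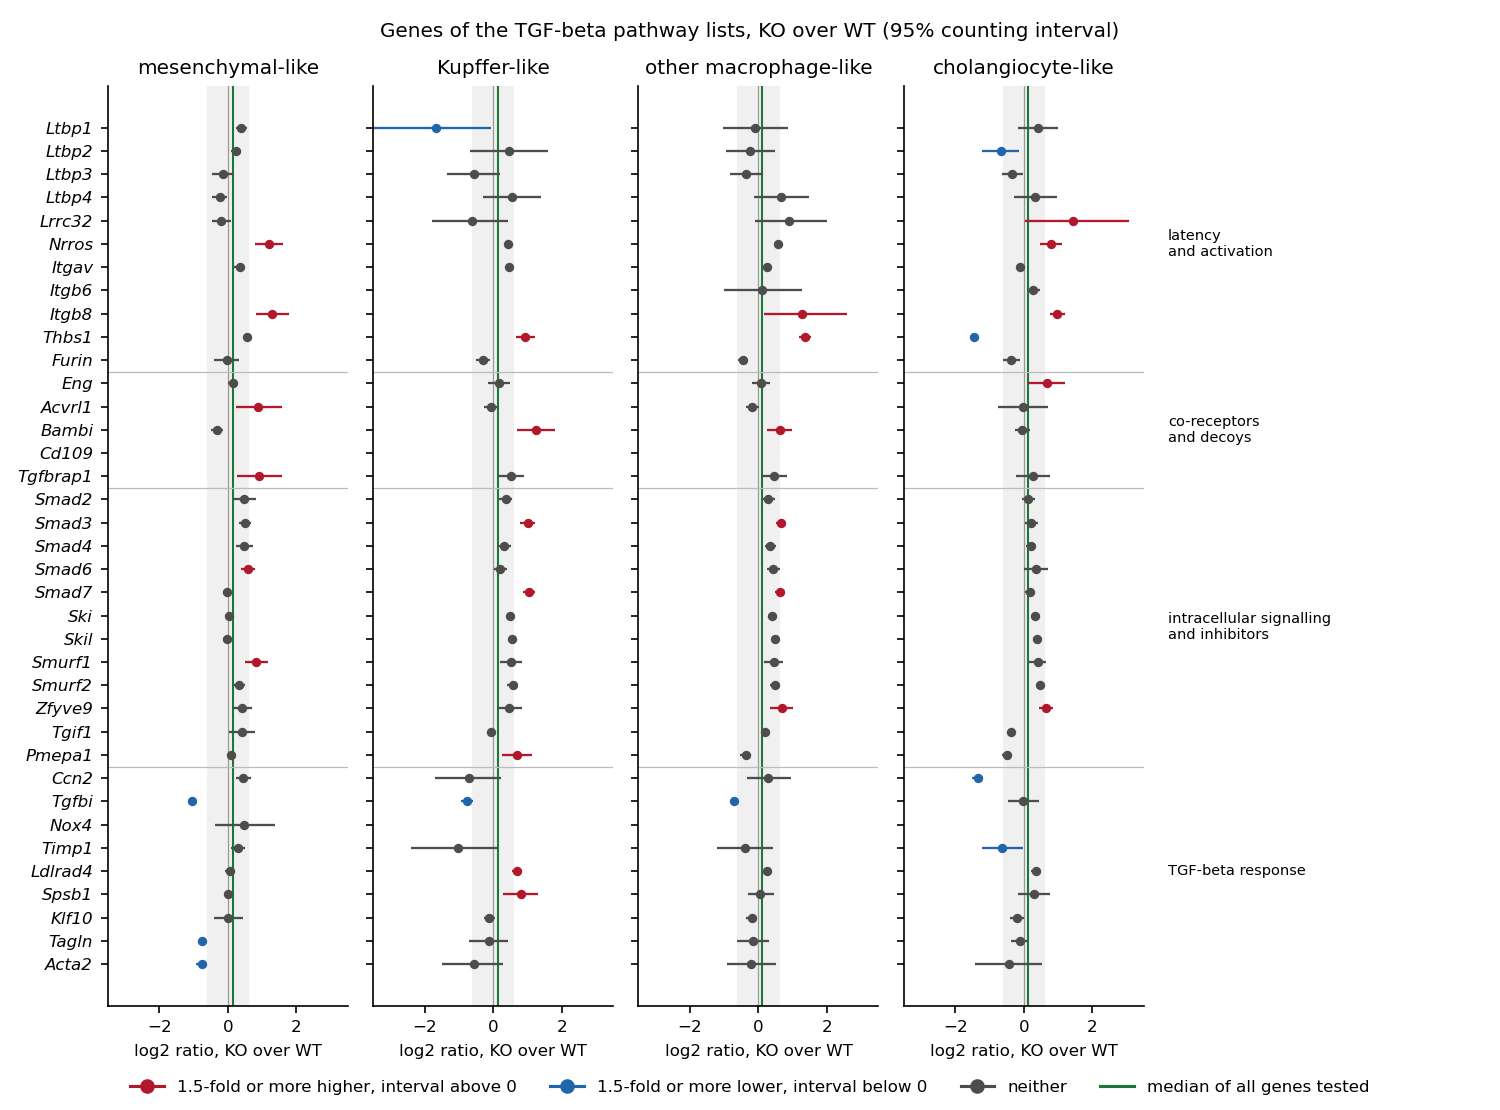
Log2 ratio of KO over WT for the genes of the 4 pathway lists in 4 cell types, with 95% counting intervals, for genes with at least 20 UMIs. An interval that passes the axis limit is drawn up to it. The grey band marks ratios under 1.5-fold and the green line the median of all genes of the type. The types are mesenchymal-like, Kupffer-like, other-macrophage-like and cholangiocyte-like cells. Tgfbi is lower in mesenchymal-like and in both macrophage types, Tagln and Acta2 are lower in mesenchymal-like cells, and Smad3, Smad7, Bambi and Thbs1 are higher in both macrophage types, although relative to the median gene Thbs1 alone of the 4 stays called in other-macrophage-like cells.

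In cholangiocyte-like cells 5 of 35 genes were called higher and 4 lower, beside 17.2% and 7.01% of all genes. Thbs1 went from 341 to 125 CPM (-1.45) and Ccn2, a matricellular growth factor gene, from 200 to 79.3 (-1.34), with Ltbp2 (-0.67) and Timp1 (-0.62) also lower. Lrrc32 (1.44, at 1.12 and 3.05 CPM), Itgb8 (45.7 to 89.6, 0.97), Nrros (0.79), Eng and Zfyve9 (0.66 each) were higher. In classical monocyte-like cells 4 of 28 were called higher and 3 lower, beside 10.4% and 3.81%. Smad3 (94.3 to 187 CPM, 0.99), Skil (0.73), Nrros (0.69) and Ski (0.60) were higher, and Acta2 (-0.88), Pmepa1 (-0.76) and Tgfbi (375 to 232, -0.69) lower. Acta2 stood highest in mesenchymal-like cells, at 285 CPM in WT and 168 in KO. The part of free RNA in its monocyte call was not tested.

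In sinusoidal endothelial-like cells 3 of 34 were called higher and 3 lower, beside 8.50% and 12.8% of all genes. Ccn2 went from 134 to 41.5 CPM (-1.70), with Klf10 (-0.65) and Lrrc32 (-0.62) lower and Itgav (0.76), Ldlrad4 (0.69) and Skil (0.64) higher. In vascular endothelial-like cells 3 of 32 were called higher and 4 lower, beside 6.76% and 6.47%. Ltbp1 went from 30.3 to 7.73 CPM (-1.97), and Tgfbi (-1.15), Acvrl1 (-0.70) and Furin (-0.68) were lower, while Itgb8 (1.5), Spsb1 (0.93) and Nrros (0.69) were higher. In low-UMI endothelial-like cells 3 of 26 were called higher and 1 lower, beside 8.76% and 6.92%. These were Nrros (0.89), Ski (0.75) and Smurf1 (0.64), with Ccn2 (-0.75) lower.

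In NK or ILC1-like cells 5 of 28 were higher and 1 lower, beside 10.5% and 3.36%. Skil, a SMAD co-repressor, went from 218 to 339 CPM (0.64) and Smad2 from 44.3 to 67.3 (0.60). Spsb1 (1.38), Zfyve9 (1.28) and Smad6 (0.94) were higher at levels of at most 7.66 CPM, and Klf10, an early TGF-beta response transcription factor, was lower (56.9 to 28.4, -1.0). In T-like cells 4 of 32 were higher and 1 lower, beside 9.98% and 4.23%. Itgb8 went from 39.5 to 62.1 CPM (0.65), with Ltbp4, Spsb1 and Smurf1 higher and Tagln lower. Tagln stood highest in mesenchymal-like cells, at 624 CPM in WT and 371 in KO, and the part of free RNA in its T-like call was not tested. In B-like cells 2 of 32 were higher, Thbs1 (0.72) and Smad3 (117 to 179 CPM, 0.62), and Tgfbi was lower (-0.75), beside 7.79% and 3.58%. In low-UMI cholangiocyte-like cells 0 of 14 were higher and 1, Tgif1, lower, beside 5.99% and 8.72%.

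Some response genes were called in several types. The 3 given here were chosen after their values were seen, and each was tested in 12 of the 13 types. Tgfbi was called lower in 6 and higher in none, and Ccn2 lower in 3 and higher in none. Spsb1 was called higher in 5 and lower in none. Over all pairs 11.1% were called higher and 5.63% lower. Tgfbi stood highest in mesenchymal-like cells, at 565 CPM in WT and 273 in KO. The part of free RNA in its calls in other types was not tested. Relative to the median gene the Spsb1 calls in T-like and scar-associated macrophage-like cells ended. So did the other 3 calls higher in T-like cells, those of Skil, Smad2, Smad6 and Zfyve9 in NK or ILC1-like cells, of Lrrc32, Eng and Zfyve9 in cholangiocyte-like cells, of Bambi and Zfyve9 in other-macrophage-like cells, of Ldlrad4 and Pmepa1 in Kupffer-like cells and of Smad6 in mesenchymal-like cells. The calls of Ski in classical monocyte-like, of Smad3 in B-like and of Smurf1 in low-UMI endothelial-like cells also ended. All these ratios compare 1 WT and 1 KO library, and no replicate bears on any of them.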

How the data were processed

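Single-cell RNA-seq of liver nonparenchymal cells was analysed for 2 libraries, 1 WT and 1 KO, from the UMI counts per gene and barcode deposited by the authors. Cell Ranger 7.0.1 is named per the file headers, and Cell Ranger 3.1.0, Seurat and mm10 are named in the submitters' processing notes. Whether intronic reads or strand were used in counting is not given in the sources used here. Cells with under 200 genes or over 20% mitochondrial UMIs were removed (413 WT, 149 KO). The highest Scrublet scores were removed at 0.8% per 1000 barcodes (1034 WT, 1295 KO), since the automatic threshold marked 0 WT and 717 KO cells and so did not work in WT. Both libraries were clustered together (scanpy 1.11.5, 2000 variable genes, 30 components, 15 neighbours, Leiden resolution 1), and a cluster was named where at least 3 markers of a type were raised. UMIs were summed per type and library. Ratios were computed for genes whose UMIs in the 2 libraries summed to 20 or more, and a call needed 1.5-fold and a 95% interval excluding 0. With 1 library per genotype no count model was fitted and no p-value is given. For thinned shares each cell was reduced to 1000 UMIs, which left out 919 WT and 607 KO cells. The interval code was tested on simulated Poisson counts. These lack the uneven spread of UMIs between cells seen here, so the test checks the code and not the width of the intervals for these data. Gene spans and overlaps come from the GRCm38 annotation.

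The 6 genes, the marker and pathway lists and the rules were chosen with earlier results of these data known. Pathway genes are named where called in the 13 types in which a ligand or receptor gene stood among its 3 highest, and the 5 most similar genes are named per gene. 1 gene of the TGF-beta response list is not reported here and is in none of the list counts. The alternatives were doublet removal, cell filters, clustering, single-cell gating, per-cell means, thinning, the richest cells, scaling and the UMI minimum. The gating rule, a lead of 1.5-fold over the next type, was set after seeing that a first rule left out most cells. It left out 3856 WT and 4287 KO cells. Of the 1056 WT and 1125 KO cells it gated as other macrophage, 269 and 460 had that type by clustering. These were 205 of 953 and 154 of 1079 for scar-associated macrophages, and 53 of 110 and 54 of 94 for cholangiocytes. For B cells they were 825 of 826 and 1396 of 1397. A gated ratio in the macrophage and cholangiocyte types thus covers partly different cells.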

Additional observations from a re-analysis of the deposited data

How the results depend on the processing

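No paired analysis was possible because each genotype has 1 library and the labels carry no replicate numbers. The type with the highest level was kept in all 10 settings of both libraries for Tgfbr2 (B-like cells). For Tgfb1 it was kept apart from WT with cells gated singly (NK or ILC1-like cells, 246 CPM). For Tgfb3 it was kept apart from WT gated singly and KO by per-cell means. For Tgfb2 it was low-UMI cholangiocyte-like cells in WT at stricter filters (388 CPM) and in KO as reported and at stricter filters (174 CPM), and cholangiocyte-like cells otherwise. Between settings scar-associated and other-macrophage-like cells exchanged the top place for Tgfbr1 and sinusoidal and vascular endothelial-like cells for Tgfbr3. Of 93 log2 ratios, 87 stayed within their interval with no doublets removed and 85 with the automatic Scrublet threshold. Of 91, 51 did with every cell thinned to 1000 UMIs, and of 73, 52 with cells gated singly.

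The Tgfb2 ratio in cholangiocyte-like cells was 0.34 with no doublets removed, 0.23 with the automatic threshold, -0.67 with cells gated singly, 0.12 when single-cell CPM were averaged and 0.39 after thinning. For Tgfbr1 in other-macrophage-like cells the same 5 settings gave 0.17, 0.25, 0.78, 0.46 and 0.29, with 0.57 at stricter cell filters, 0.64 with each library clustered alone and 0.27 relative to the median gene. In Kupffer-like cells Tgfb3 was 0.49 at stricter filters and 0.39 after thinning, and Tgfbr1 was 1.03 with each library clustered alone and 0.50 relative to the median gene. In mesenchymal-like cells Tgfb3 was 0.91 gated and -0.62 thinned, Tgfbr2 0.91 gated and 1.06 thinned, and Tgfb2 0.16 thinned. In other-macrophage-like cells Tgfb3 was 0.59 gated. In low-UMI cholangiocyte-like cells the Tgfb1 ratio was 0.78 at stricter filters and 0 after thinning, and the Tgfb2 ratio -1.15 at stricter filters, -1.69 at resolution 2 and -1.47 without the 5 richest cells. The 54 pathway pairs called higher became 32 relative to the median gene and 34 after thinning, and the 26 called lower became 15 after thinning. Some ratios after thinning rested on few WT and KO cells with a UMI. In mesenchymal-like cells these were 9 and 7 for Tgfb3 and 9 and 12 for Tgfb2. They were 7 and 5 for Tgfb3 in Kupffer-like and 3 and 3 for Tgfb1 in low-UMI cholangiocyte-like cells. The cause of the changes between settings was not tested. Types that a setting left with too few cells or UMIs gave no value. Counting intervals carry no spread between animals, so none of the ratios has a replicate check.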
